A study of Mus musculus with 7 samples.

Results

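The regions described here are 27 bins of 500 bp at loci of cytokine and activation receptor genes, out of 30037 bins measured in all. They were taken from 5 windows of the mouse genome (build mm9) named after 9 genes: Il2ra, Cd69, Il2, Ifng, and a chromosome 11 cluster with Il4, Il13, Il5, Irf1 and Csf2. A bin was kept when each of 3 plasmid input libraries gave it at least 50 reads. The Il2ra window, chr2:11500000-11700000, held 8 such bins. The Cd69 window, chr6:129150000-129300000, held 3, and the chromosome 11 window, chr11:53400000-54100000, held 16. No bin reached the minimum in the Il2 window, chr3:36950000-37150000, or in the Ifng window, chr10:117750000-117950000. Bins are named below by window and by their order along it.

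The assay was CapStarr-seq, in which captured DNA fragments are placed in a reporter plasmid and a fragment with enhancer activity raises the amount of its own transcript. The fragments came from DNase hypersensitive sites, which are stretches of open chromatin, and were tested in P5424 cells, a single immature mouse T cell line. There were 7 samples, each the only library of its group: reporter RNA with the promoter SCP1 (super core promoter 1), with pPGK (the phosphoglycerate kinase promoter), with pPGK in a library titled PMA_I, and with a promoter labelled pR-Ea, and 3 plasmid inputs, 1 for each promoter. PMA and ionomycin were taken as the stimulus of the PMA_I library from its title, because the treatment field names them for all 7 samples. The labels give no dose or time for either agent. The assay reads plasmid fragments only, so marker genes of the cells could not be looked at.

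Phorbol myristate acetate (PMA) switches on protein kinase C, and ionomycin lets calcium into the cell, so that the pair mimics signalling through the T cell receptor. Their best known effectors in T cells are AP-1 and NFAT transcription factors, which act on promoters and distal enhancers of cytokine genes. Il2ra encodes the alpha chain of the interleukin 2 receptor, and Cd69 encodes a lectin-like membrane protein that appears early in T cell activation. Il2 encodes a T cell growth factor and Ifng encodes interferon gamma. Il4, Il13 and Il5 encode the cytokines of type 2 helper T cells, Irf1 a transcription factor induced by interferon, and Csf2 the growth factor GM-CSF.

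The promoters of the type 2 cytokine genes hold one of a pair of motifs linked to the stimulus. NFAT factors recognise a core contained in TGGAAA, and AP-1 factors recognise TGANTCA. Within the 250 bases upstream of a transcription start in RefSeq (GRCm38.p6), 8 of the 9 genes had an entry, and TGGAAA was found on either strand for 6 of them: Csf2, Il13, Il2, Il4, Il5 and Irf1. By promoter it was in 6 of their 10 listed starts and in 18.6% of all 32851, and 20.9% of all genes had it at 1 start or more. TGANTCA was found at 0 of the 10 starts and at 6.7% of all. Those of Il4, Il13 and Il5 are shown 5′ to 3′ on the strand of the gene, for 1 of the 2 listed starts of Il4, with TGGAAA or its reverse complement TTTCCA in capitals.
Il4: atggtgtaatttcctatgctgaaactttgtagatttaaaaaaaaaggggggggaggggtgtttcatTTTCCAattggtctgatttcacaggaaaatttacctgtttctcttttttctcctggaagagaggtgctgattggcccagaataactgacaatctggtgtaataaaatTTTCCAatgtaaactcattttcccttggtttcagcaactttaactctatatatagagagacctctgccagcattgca
Il13: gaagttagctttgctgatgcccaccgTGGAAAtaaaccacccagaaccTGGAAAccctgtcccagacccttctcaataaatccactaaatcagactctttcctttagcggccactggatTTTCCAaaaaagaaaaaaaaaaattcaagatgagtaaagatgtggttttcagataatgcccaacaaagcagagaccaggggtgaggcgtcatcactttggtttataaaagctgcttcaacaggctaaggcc
Il5: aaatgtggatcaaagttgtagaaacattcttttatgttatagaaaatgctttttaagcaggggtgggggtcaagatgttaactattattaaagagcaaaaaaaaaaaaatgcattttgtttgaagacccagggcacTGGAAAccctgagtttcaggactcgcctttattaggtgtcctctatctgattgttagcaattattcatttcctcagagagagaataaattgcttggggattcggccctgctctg
The Il4 start shown has 2 matches and its other start has 0, Il13 has 3 and Il5 has 1. These sequences are context for the window and not measured bins: the counts are on mm9 and these promoters on GRCm38.p6, so no bin was placed in or out of a gene, exon, intron or promoter.

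Depth set what could be read at these loci. Within the bins that passed, a member had a median of 604 SCP1 reads, 494 pPGK reads, 594 pPGK_PMA_I reads and 318 pR-Ea reads. The median input was 380 reads for SCP1, 163 for pPGK and 107 for pR-Ea. Cd69 bin 3 lay exactly at the input minimum with 50 pPGK input reads, chr11 bin 16 had 51 pR-Ea input reads and Il2ra bin 2 had 53. The closest bins outside had 44 reads in their lowest input, in the chromosome 11 window at 53520501, and 42, in the Cd69 window at 129187501. The 3 inputs also carried different fragments. A position, the 5′ end of a fragment, that held SCP1 input reads in a member bin was shared with the pPGK input at a median of 3 positions a bin. The median share was 3.7% of the SCP1 input positions with pPGK and 13.0% with pR-Ea, and 17.4% of the pPGK input positions with pR-Ea. The promoter comparisons therefore set mostly different fragments of a bin side by side, and whether this moved a promoter difference was not tested.

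**Figure D1:**
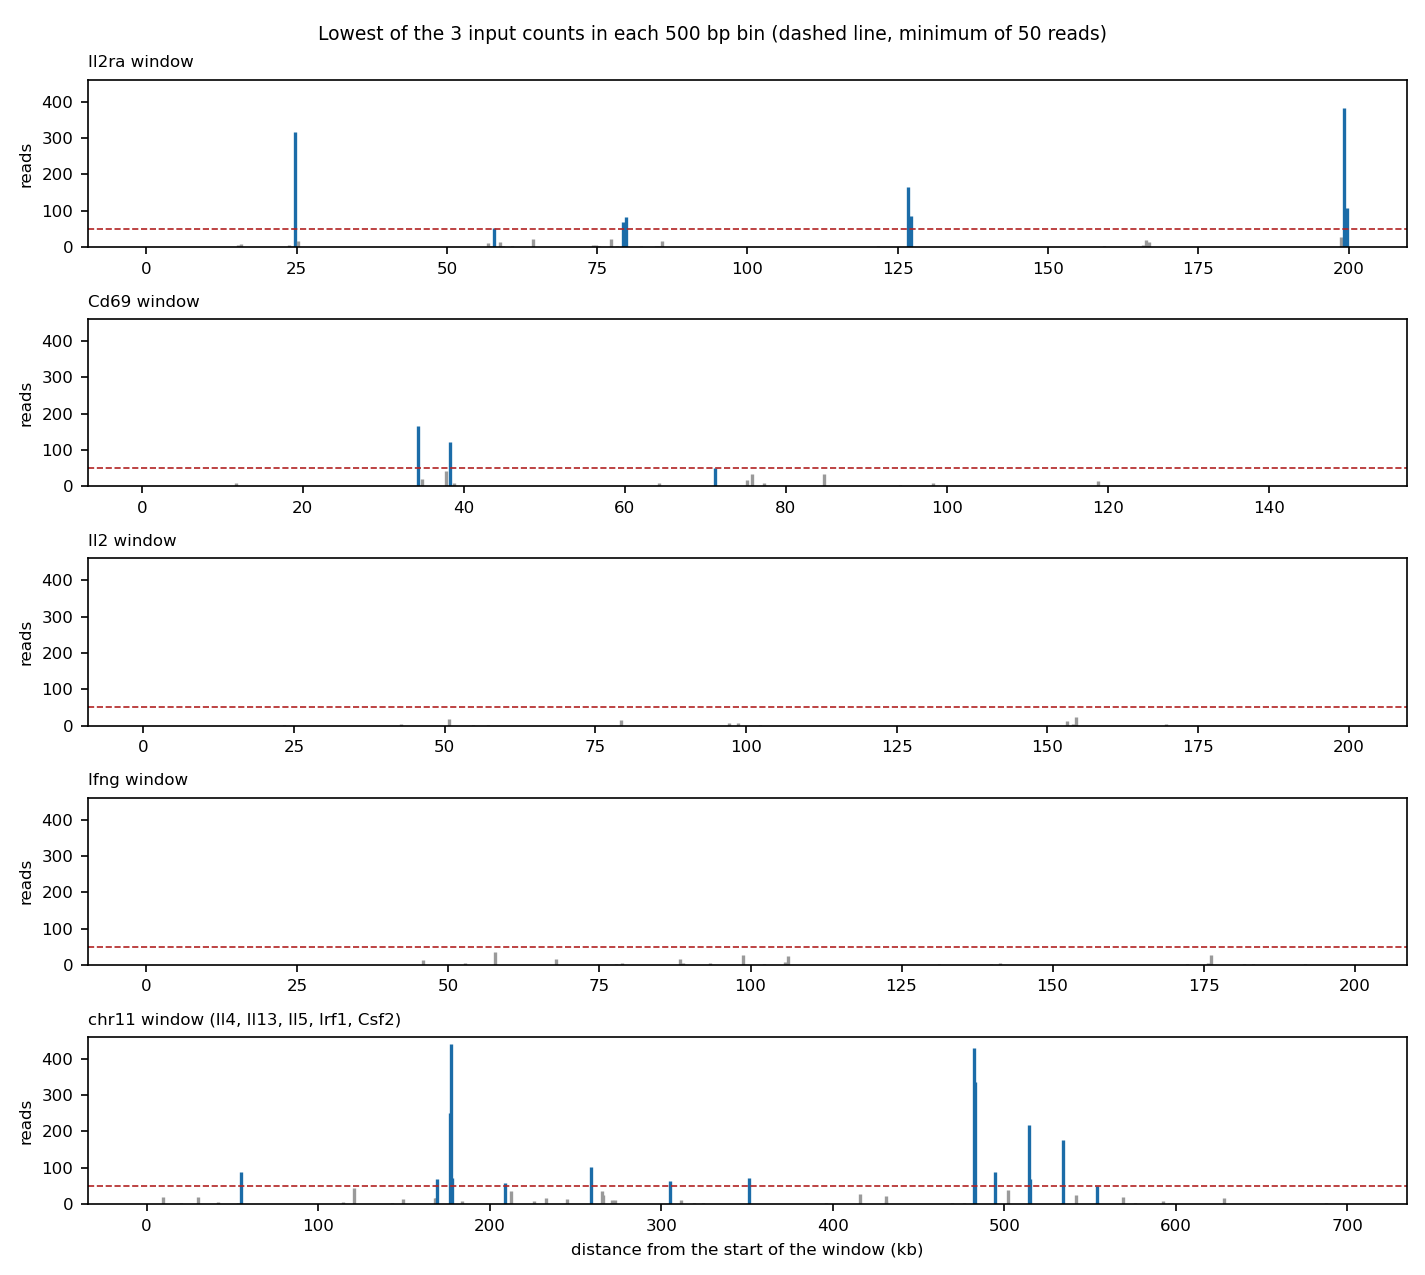
Lowest of the 3 input counts (reads, vertical axis) in each 500 bp bin against the distance from the start of the window (kb), with 1 panel a window and a dashed line at the minimum of 50 reads. The Il2 and Ifng panels stay under the line, and their highest bins reach 24 and 35 reads.

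Activity is given as log2 of reporter over input, with a pseudocount of 1 after scaling each library to its total over all 30037 bins. With 1 library a group there is no replicate and no p-value. The SE beside a value is over the positions of a bin, so it covers unevenness among fragments and not the spread between cultures or libraries. An interval over positions is the normal 95% interval from that SE. A bin was called above or below input when the size of its log2 value was at least 1 and the exact 95% Clopper-Pearson interval of its read counts excluded equality. Intervals of read counts cover counting error only, since reads from 1 amplified molecule are not independent.

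With SCP1, 4 of the 27 bins were called above input and 3 below, against 3.7% above and 14.5% below among all bins. The 4 above were Il2ra bins 2 and 3 and chr11 bins 6 and 9, and the 3 below were Il2ra bins 4 and 8 and chr11 bin 12. With pPGK, 3 were above (all bins: 3.85%) and 0 below (9.53%). These were Il2ra bin 3, Cd69 bin 3 and chr11 bin 9. The same 3 bins were above input in pPGK_PMA_I (7.66% of all bins) and chr11 bin 8 was below (9.42%). With pR-Ea, 1 bin was above (0.869%), chr11 bin 6, and 2 were below (8.17%), chr11 bins 5 and 15. In all, 11 bins, or 40.7%, were called in at least 1 library, as were 33.0% of all bins. None was called the same way with all 3 promoters, against 3.69% of all bins.

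Median activity of the 27 bins was 0.05 with SCP1, 0.37 with pPGK, 0.67 in pPGK_PMA_I and 0.18 with pR-Ea. Over all bins the medians were -0.15, 0.07, 0.07 and -0.02. Values lay above 0 with all 3 unstimulated promoter libraries in 10 bins, or 37.0%, and in 21.5% of all bins. They lay below 0 with all 3 in 5 bins, or 18.5%, and in 27.1% of all bins. The 3 bins above input with pPGK each had fewer than 100 pPGK input reads, 69, 50 and 87. Among all bins with 50 to 99 such reads, 6.78% were called above input with pPGK, against 2.6% of those with 200 or more. The higher medians with pPGK also depended on the input minimum. At a minimum of 100 reads, 13 members were left, with medians of -0.01 with pPGK and -0.09 in pPGK_PMA_I. All bins then had 0.04 and 0.01. At that minimum the members stayed higher with SCP1 and pR-Ea, at 0.19 and 0.14 against -0.14 and -0.02. Other settings gave another picture. With bins shifted by 250 bp, the median was -0.01 against -0.02 with pR-Ea, 0.07 against -0.15 with SCP1 and 0.44 against 0.07 with pPGK. At a minimum of 20 reads it was 0.03 against -0.03, -0.11 against -0.15 and 0.32 against 0.11 in the same order.

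**Figure D2:**
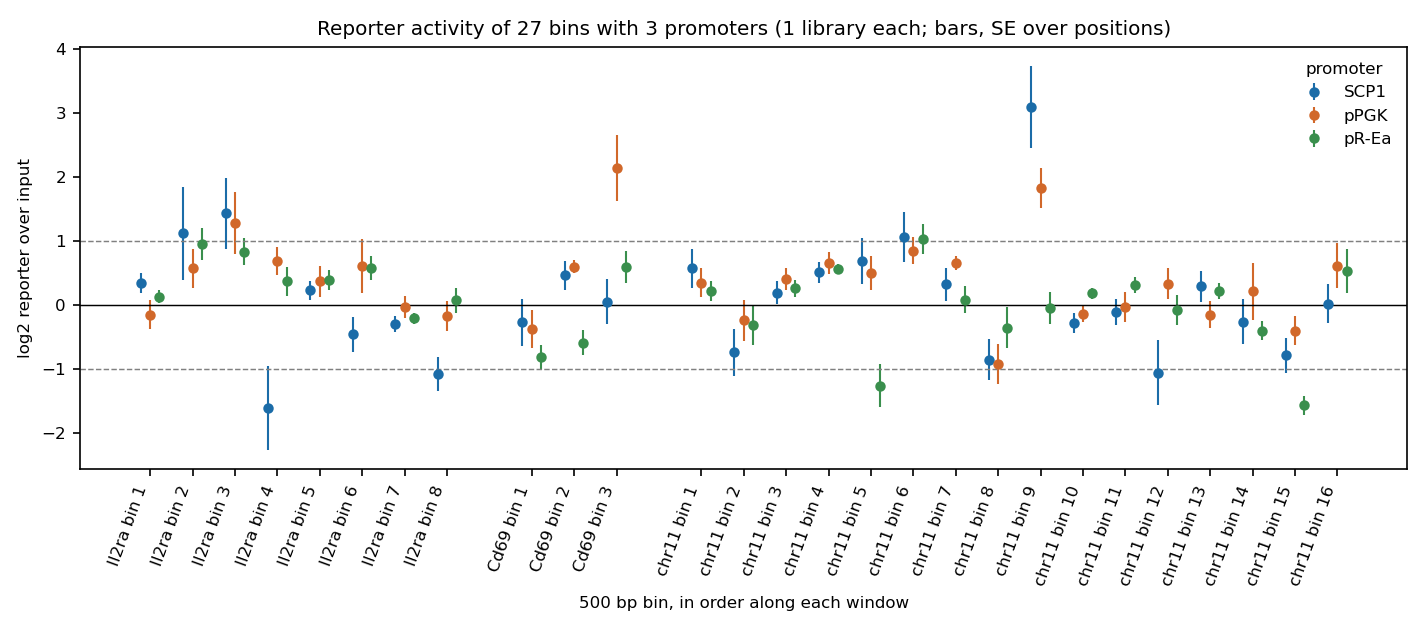
Log2 of reporter over input (vertical axis) for the 27 bins in order along each window, with 1 point for each promoter and bars for the SE over positions. chr11 bin 9 reaches 3.09 with SCP1 and lies at -0.05 with pR-Ea, while Il2ra bin 4 lies at -1.61 with SCP1 and above 0 with the other promoters.

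Il2ra, the receptor gene whose product gives T cells high affinity for interleukin 2, had its most active bin at chr2:11579001-11579500, Il2ra bin 3. This bin gave 974 SCP1 reads over 284 input reads, 406 pPGK and 423 pPGK_PMA_I reads over 69, and 477 pR-Ea reads over 98. All 4 libraries had activity above 0. The log2 activity was 1.43 (SE 0.56) with SCP1, 1.28 (SE 0.48) with pPGK, 1.23 (SE 0.23) in pPGK_PMA_I and 0.83 (SE 0.21) with pR-Ea. Few fragments carried the pPGK values: the input had 4 positions, and 1 position held 77.8% of the pPGK reads and 71.4% of the pPGK_PMA_I reads. Without the position with most reads in each library the values fell under the threshold, at 0.46 (SE 0.83) with pPGK and 0.82 (SE 0.14) in pPGK_PMA_I. The latter was also under it, at 0.89, when scaled to all used reads.

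The bin next to it behaved differently by promoter. Il2ra bin 4, chr2:11579501-11580000, gave 121 SCP1 reads over 293 input reads, the only library of the 4 with activity under 0. It gave 1023 pPGK reads and 1307 pPGK_PMA_I reads over 262 and 292 pR-Ea reads over 83. Its SCP1 activity was -1.61 (SE 0.66), its pPGK activity 0.69 (SE 0.22) and its pR-Ea activity 0.37 (SE 0.23), with 0.93 (SE 0.21) in pPGK_PMA_I. The 2 neighbours differed by 3.04 on the log2 scale with SCP1 and by 0.59 with pPGK.

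Il2ra bin 2, chr2:11557501-11558000, was called above input with SCP1 only and had values above 0 in every library, at 1.12 with SCP1, 0.57 with pPGK, 0.97 in pPGK_PMA_I and 0.95 with pR-Ea. It had 416 SCP1 reads over 150, 586 pPGK and 834 pPGK_PMA_I reads over 163, and 280 pR-Ea reads over 53. Its SCP1 value rested on uneven positions (SE 0.73), and its 95% interval over positions was -0.31 to 2.56. That of pPGK also held 0, at -0.02 to 1.17. At the far end of the window, Il2ra bin 8, chr2:11699501-11700000, was at -1.08 (SE 0.26) with SCP1, from 394 reads over 657. It was at -0.17 with pPGK, 0.39 in pPGK_PMA_I and 0.07 with pR-Ea. Of the other bins, Il2ra bin 7, chr2:11699001-11699500, had the most input reads and lay between -0.30 and -0.03 in all 4 libraries. Il2ra bin 6, chr2:11627001-11627500, ran from -0.46 (SE 0.27) with SCP1 to 0.61 (SE 0.42) with pPGK. Il2ra bins 1 and 5 lay between -0.19 and 0.77. Summed over its 8 bins, the Il2ra window was at 0.07 (SE 0.10) with SCP1, 0.31 (SE 0.11) with pPGK, 0.45 (SE 0.10) in pPGK_PMA_I and 0.17 (SE 0.06) with pR-Ea.

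Cd69, the early activation receptor, had 1 bin with high activity under pPGK. Cd69 bin 3, chr6:129221001-129221500, gave 535 pPGK reads and 594 pPGK_PMA_I reads over 50 input reads. It gave 293 SCP1 reads over 223 and 242 pR-Ea reads over 59. Both pPGK libraries stood far above their shared input, the SCP1 library stood near its own and pR-Ea lay between. Activity was 2.14 (SE 0.51) with pPGK, 2.17 (SE 0.42) in pPGK_PMA_I, 0.59 (SE 0.25) with pR-Ea and 0.05 (SE 0.35) with SCP1. Positions without an input read held 49.9% of its pPGK reads.

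Cd69 bin 2, chr6:129188001-129188500, had activity above 0 with SCP1 and pPGK and under 0 with pR-Ea. The reads were 1160 over 666 with SCP1, 925 and 1189 over 253 in the pPGK and pPGK_PMA_I libraries, and 221 over 122 with pR-Ea. That is 0.46 (SE 0.23), 0.60 (SE 0.10), 0.85 (SE 0.13) and -0.59 (SE 0.20). Cd69 bin 1, chr6:129184001-129184500, lay below 0 in all 4 libraries, from -0.82 (SE 0.20) with pR-Ea to -0.27 (SE 0.37) with SCP1. Summed over the 3 bins, the window was at 0.22 (SE 0.17) with SCP1, 0.64 (SE 0.15) with pPGK, 0.78 (SE 0.16) in pPGK_PMA_I and -0.43 (SE 0.13) with pR-Ea.

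For Il2 and Ifng, cytokines of activated T cells, no bin met the minimum, so sums over the whole 200 kb window are given, scaled to all reads used. The Il2 window held 1245 SCP1, 1643 pPGK, 2175 pPGK_PMA_I and 1947 pR-Ea reads, over 1391 SCP1, 415 pPGK and 612 pR-Ea input reads. Its activity was -0.44 (SE 0.18) with SCP1, 0.53 (SE 0.21) with pPGK, 0.67 (SE 0.18) in pPGK_PMA_I and 0.22 (SE 0.10) with pR-Ea. The Ifng window held 1738, 2146, 3089 and 1473 reads in the same order, over 1850, 684 and 664. Its activity was -0.37 (SE 0.14), 0.20 (SE 0.16), 0.45 (SE 0.17) and -0.30 (SE 0.11). Both windows were sparsely covered: the SCP1 input level per kb, in rpm, was 0.161 for Il2, 0.214 for Ifng, 0.441 for Cd69, 0.486 for the chromosome 11 window and 0.943 for Il2ra. These sums are not on the scale of the sums over passing bins. Taken whole in the same way, Il2ra was at 0.03 (SE 0.08) with SCP1 and 0.13 (SE 0.08) with pPGK. Cd69 was at 0.23 (SE 0.12) and 0.35 (SE 0.10), and the chromosome 11 window at 0.22 (SE 0.06) and 0.13 (SE 0.05).

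The chromosome 11 window, named after Il4, Il13, Il5, Irf1 and Csf2, held the most active bin with SCP1. chr11 bin 9, chr11:53751001-53751500, gave 1776 SCP1 reads over 164 input reads, 752 pPGK and 988 pPGK_PMA_I reads over 87, and 190 pR-Ea reads over 72. The SCP1 and both pPGK libraries lay far above their inputs, and the pR-Ea library did not. Activity was 3.09 (SE 0.64) with SCP1, 1.83 (SE 0.31) with pPGK, 2.11 (SE 0.24) in pPGK_PMA_I and -0.05 (SE 0.25) with pR-Ea. The SCP1 reads were spread over 87 positions and the SCP1 input over 42, and 46.1% of the SCP1 reads lay at positions without an input read. Some of these positions adjoin an input position. By fragment midpoint, 298 SCP1 reads lay at -143 bp from the bin centre with 0 input reads. At -142 bp the input had 54 reads and the reporter 0. Only 1 of the input positions was shared between SCP1 and pPGK, and 0 between pPGK and pR-Ea. In the pPGK file, 71.4% of the bin's reads were at positions that passed the mapping score, against a median of 97.0% over the 27 bins.

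A bin with like values for every promoter was chr11 bin 6, chr11:53608501-53609000. It gave 612 SCP1 reads over 230, 328 pPGK and 352 pPGK_PMA_I reads over 75, and 329 pR-Ea reads over 59. Activity was 1.06 (SE 0.39) with SCP1, 0.85 (SE 0.21) with pPGK, 0.84 (SE 0.11) in pPGK_PMA_I and 1.03 (SE 0.23) with pR-Ea. Without the position with most reads the SCP1 value was 0.98 (SE 0.51) and not called. chr11 bin 4, chr11:53577001-53577500, had 2865 SCP1 reads over 1586 and lay between 0.51 and 0.79 in all 4 libraries.

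Low values came from 4 other bins of the window. chr11 bin 8, chr11:53705001-53705500, had activity under 0 in every library and was called in pPGK_PMA_I only, with 210 SCP1 reads over 300, 81 pPGK and 57 pPGK_PMA_I reads over 64, and 155 pR-Ea reads over 73. Activity was -0.86 (SE 0.32), -0.92 (SE 0.31), -1.53 (SE 0.33) and -0.36 (SE 0.32), the last with an interval over positions of -0.99 to 0.27. chr11 bin 15, chr11:53934001-53934500, was at -1.57 (SE 0.15) with pR-Ea, from 310 reads over 340, and between -0.79 and -0.30 in the other libraries. chr11 bin 5, chr11:53577501-53578000, was at -1.26 (SE 0.33) with pR-Ea, from 81 reads over 72, and between 0.50 and 0.82 in the others. It adjoins chr11 bin 4, and with pR-Ea the 2 differed by 1.82. chr11 bin 12, chr11:53894001-53894500, was at -1.06 (SE 0.51) with SCP1, from 73 reads over 121, and at 0.33 (SE 0.24) with pPGK. chr11 bin 10, chr11:53882001-53882500, had the most input reads of the window and lay between -0.28 and 0.18. Summed over the 16 bins, the window was at 0.28 (SE 0.09) with SCP1, 0.34 (SE 0.07) with pPGK, 0.42 (SE 0.08) in pPGK_PMA_I and 0.09 (SE 0.04) with pR-Ea.

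The stimulus comparison asked whether fragments of these activation loci gave more reporter RNA in the PMA_I library. The log2 ratio of pPGK_PMA_I over pPGK was compared between 2 reporter libraries that share 1 plasmid input, so the input cancels. Of the 27 bins, 1 was called higher and 0 lower, against 0.862% higher and 0.464% lower of the 29935 bins tested. The median of the members was 0.01, and that of all bins 0.05. Most bin ratios were small: 22 of 27, or 81.5%, lay within 0.5 of 0, as did 85.0% of all bins. The 2 libraries differed in where their reads lay. Positions without an input read held a median of 20.9% of a member's pPGK reads and 3.1% of its pPGK_PMA_I reads. Whether this moved the bin ratios was not tested, so a ratio near 0 does not show that single fragments were unchanged.

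The 1 bin called was chr11 bin 2, chr11:53569001-53569500, in the chromosome 11 window. It gave 139 pPGK reads and 350 pPGK_PMA_I reads over 68 input reads, 309 SCP1 reads over 407, and 270 pR-Ea reads over 124. The stimulated library was the only one with activity above 0. The stimulus ratio was 1.21 (SE 0.29), with a 95% interval from read counts of 0.93 to 1.51 and over positions of 0.64 to 1.78. Both intervals reach under 1, the 2-fold threshold. Activity went from -0.24 (SE 0.32) with pPGK to 0.97 (SE 0.24) in pPGK_PMA_I, short of the call above input, and the other promoters gave -0.32 (SE 0.30, pR-Ea) and -0.74 (SE 0.37, SCP1). The reads behind it, from 39 to 139, 27 to 94 and 21 to 47 at the 3 leading positions with an input read, are those that made the call. Of the 33 positions with reads in either library, 19 were higher in pPGK_PMA_I. Counting each position once in place of its reads gave 0.29, with too few positions for a call.

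Another 3 bins had a ratio whose interval over positions excluded 0 without reaching 2-fold. chr11 bin 1, chr11:53454501-53455000, was at 0.54 (SE 0.19), from 268 to 421 reads. chr11 bin 12 was at 0.40 (SE 0.15), from 417 to 594 reads, and Cd69 bin 2 at 0.25 (SE 0.10), from 925 to 1189. With chr11 bin 2 these make 4 of 27 bins, or 14.8%, with an interval above 0, and 15.4% of all bins had one. None of the 27 had an interval below 0, against 9.6% of all bins. The lowest ratios, -0.61 (SE 0.42) in chr11 bin 8 and -0.53 (SE 0.71) in chr11 bin 16, had intervals over positions that held 0. Their intervals from read counts did not, at -1.14 to -0.11 and -0.73 to -0.33. In chr11 bin 16, 39.3% of the pPGK reads were at positions that passed the mapping score.

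At the Il2ra locus the highest ratio was 0.56 (SE 0.32) in bin 8, from 305 to 486 reads, and the lowest -0.42 (SE 0.24) in bin 6, from 344 to 278. Cd69 bin 3, the most active bin with pPGK, was at 0.04 (SE 0.15), and chr11 bin 9 at 0.28 (SE 0.40). Positions within chr11 bin 9 went both ways. Its leading positions with an input read went from 161 to 380 and from 166 to 341 reads, while 1 without an input read went from 82 to 0. Summed over bins, the ratio was 0.14 (SE 0.09) for Il2ra, 0.14 (SE 0.10) for Cd69 and 0.07 (SE 0.07) for the chromosome 11 cluster. These sums depend on the processing. Counted by position, Il2ra was at -0.07 and the cluster at -0.08, and without the mapping score filter the 3 values were 0.60, 0.64 and 0.36. Whole windows, scaled to all used reads instead, gave 0.13 (SE 0.15) for Il2 and 0.25 (SE 0.12) for Ifng. On that scale the whole Il2ra window was at 0.08 (SE 0.07), Cd69 at 0.15 (SE 0.09) and the cluster at 0.05 (SE 0.06).

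**Figure D3:**
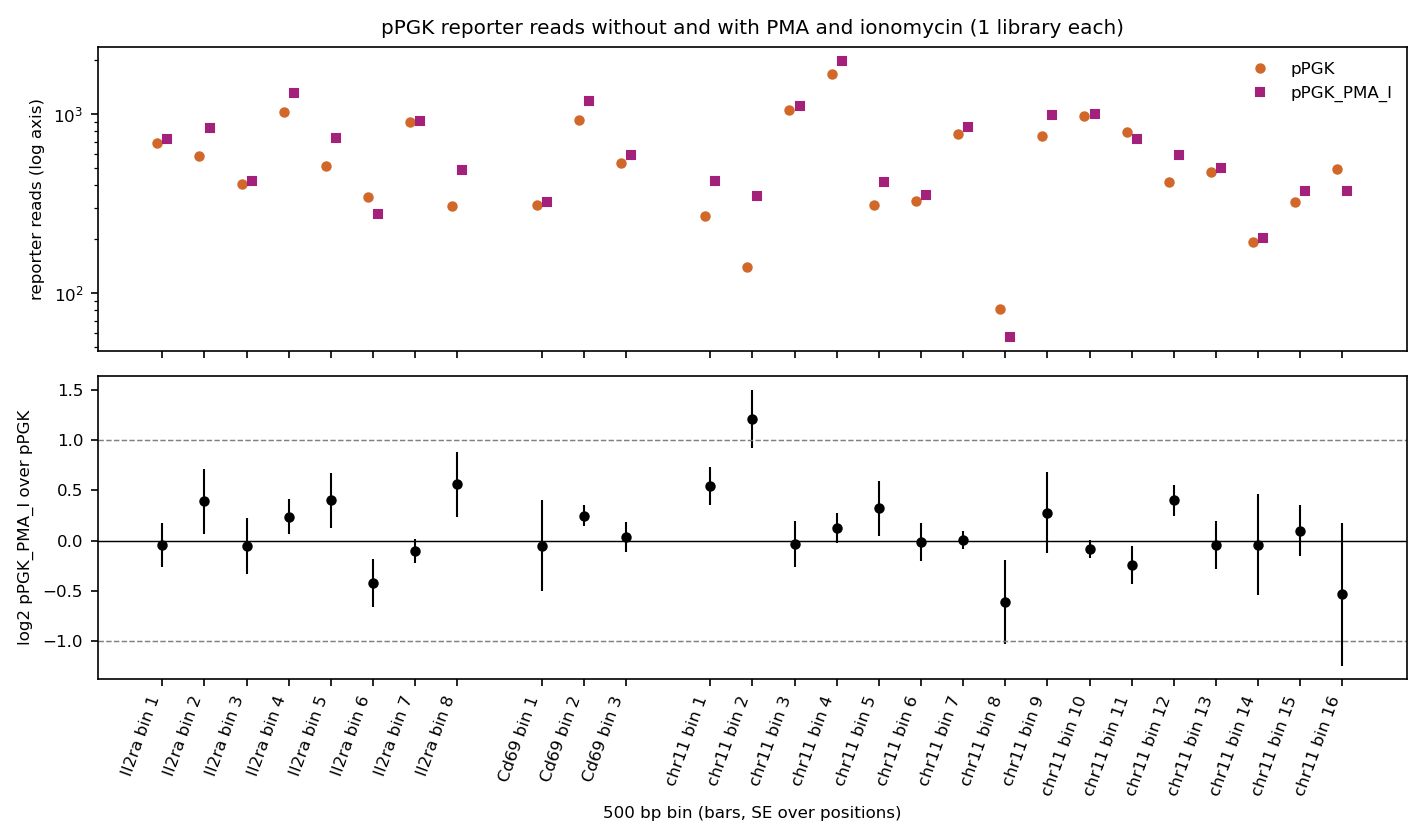
Reporter reads in the pPGK and pPGK_PMA_I libraries (upper panel, log axis) and log2 of pPGK_PMA_I over pPGK with the SE over positions (lower panel) for the 27 bins. chr11 bin 2 stands highest at 1.21, and 22 bins lie within 0.5 of 0.

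**Figure D4:**
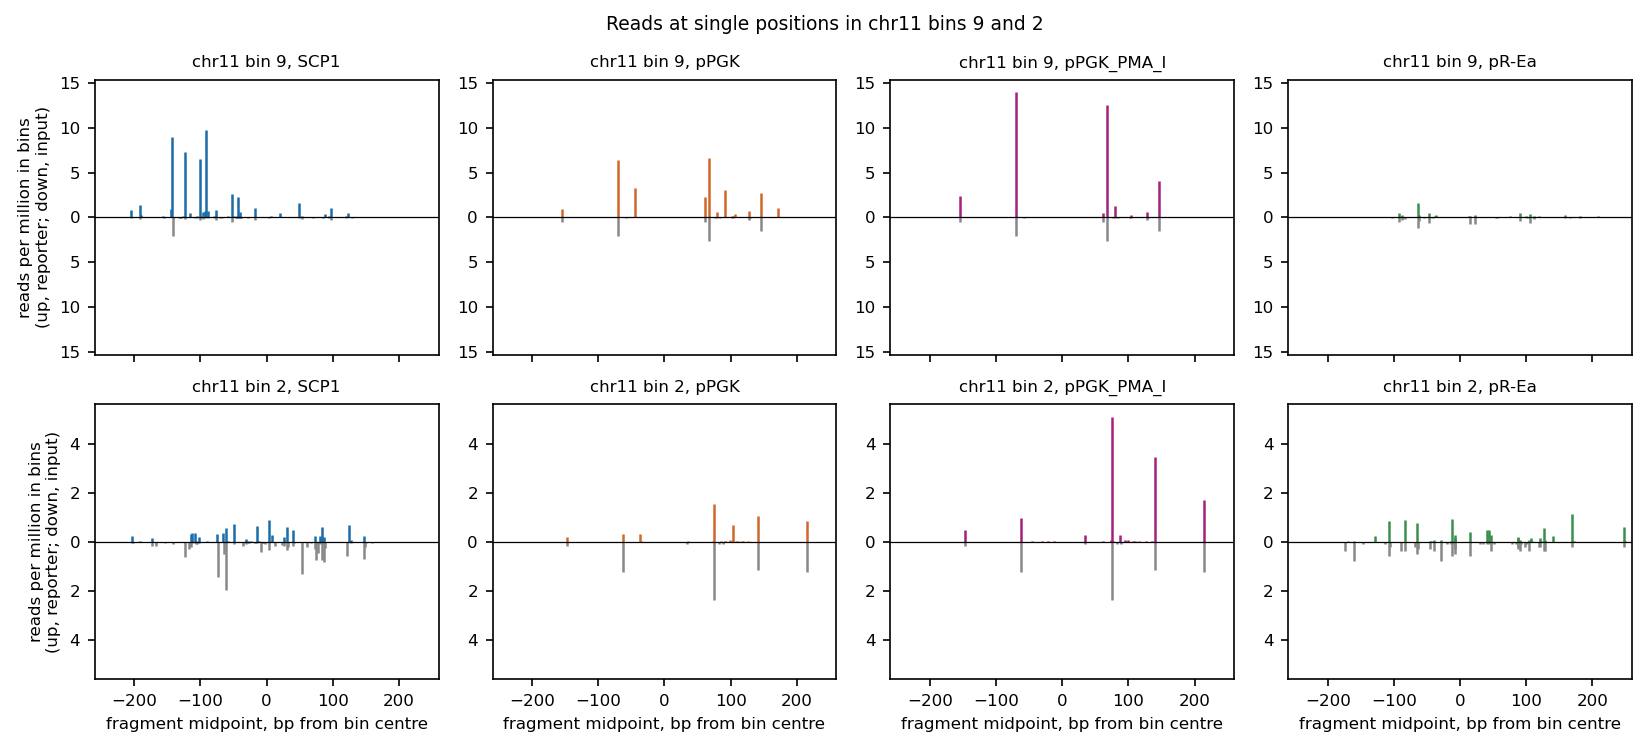
Reads at single positions (vertical axis, rpm over all bins; reporter up, input down) against the fragment midpoint in bp from the bin centre, for chr11 bins 9 and 2 in each library. In bin 9 the SCP1 reads fall on 87 positions, and in bin 2 the 3 positions named in the text are higher in pPGK_PMA_I than in pPGK.

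Promoters were compared by the difference of their log2 activities, called when at least 1 in size with an interval over positions that excluded 0. The 3 comparisons share libraries, so their calls are not independent of each other. pPGK was higher than SCP1 in 4 of 27 bins and lower in 0, against 8.13% and 2.63% of all bins. pR-Ea was higher than SCP1 in 3 and lower in 3, against 9.41% and 5.54%. pR-Ea was higher than pPGK in 0 and lower in 5, against 5.48% and 6.47%.

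SCP1 gave the lower value in 5 bins, 3 of them at Il2ra. In Il2ra bin 4, pPGK exceeded SCP1 by 2.31 (SE 0.70) and pR-Ea exceeded it by 1.98 (SE 0.70). The differences were 1.08 (SE 0.50) and 1.04 (SE 0.33) in Il2ra bin 6, and pR-Ea exceeded SCP1 by 1.15 (SE 0.33) in Il2ra bin 8. pPGK also exceeded SCP1 by 2.09 (SE 0.62) in Cd69 bin 3 and by 1.40 (SE 0.56) in chr11 bin 12, where it was 1.02 (SE 0.61) and not called without the position with most reads.

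pR-Ea gave the lower value in 5 bins as well. In chr11 bin 9, pR-Ea minus SCP1 was -3.13 (SE 0.69) and pR-Ea minus pPGK was -1.88 (SE 0.40). pPGK minus SCP1 was -1.25 (SE 0.71) there and was not called, with an interval over positions from -2.65 to 0.15. chr11 bin 5 gave -1.94 (SE 0.49) against SCP1 and -1.76 (SE 0.42) against pPGK. Cd69 bin 2 gave -1.04 (SE 0.30) and -1.19 (SE 0.23) in the same order. Against pPGK alone, Cd69 bin 3 gave -1.55 (SE 0.57) and chr11 bin 15 gave -1.17 (SE 0.26).

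As a description over the 27 bins, Spearman's rho of the activities was 0.54 for SCP1 with pPGK, 0.34 for pR-Ea with SCP1 and 0.61 for pR-Ea with pPGK. Over all bins it was 0.58, 0.41 and 0.46. The 2 pPGK libraries, which divide by the same input counts, gave 0.72 over the members and 0.88 over all bins. Neighbouring bins are not independent points, since the 27 bins form 20 separate stretches. At least 1 of the 8 comparisons called 14 of the 27 bins, or 51.9%, against 42.2% of all bins.

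Over all comparisons 33 values were called, and 26 of them lost the call when each position was counted once in place of its reads, a count that cannot grow with the reads at a position. Of those 26, 8 had fewer than the 50 positions a call needs and could not be called. By position, 18 of the 26 kept under 50% of their log2 value. Calls over all bins fell in every comparison too, so the loss was not particular to these members. Bins called above input went from 1112 to 119 with SCP1 and from 1156 to 206 with pPGK. Those below went from 4357 to 1076 and from 2862 to 327. In chr11 bin 9, pR-Ea minus SCP1 went from -3.13 to -0.55 and pR-Ea minus pPGK from -1.88 to -0.52. Its pPGK_PMA_I activity went from 2.11 to 0.57, and the pPGK activity of Cd69 bin 3 from 2.14 to 0.89. Only 2 of the 26 stayed at 1 or more in size, such as -1.1 for pR-Ea minus pPGK in chr11 bin 5. The pR-Ea activity of chr11 bin 6 was 0.89. Another 7 kept the call by position and under every other setting that held the bin. All lay in bins with a lowest input of 50 to 83 reads, so the minimum of 100 reads never held them. Bin values were not followed with bins shifted by 250 bp, so that setting did not try them either. The 7 were chr11 bin 9 with SCP1 (1.18 to 3.39) and with pPGK (1.15 to 2.03), Il2ra bin 3 with SCP1 (1.01 to 2.64) and 4 promoter differences. These were pPGK over SCP1 in Il2ra bin 4 (1.3 to 2.74) and Cd69 bin 3 (1.1 to 2.3), pR-Ea over SCP1 in Il2ra bin 4 (1.45 to 2.34), and pR-Ea minus SCP1 in chr11 bin 5 (-2.07 to -1.11). Counted by position, Il2ra bin 3 was at -0.36 in pPGK_PMA_I, and pR-Ea minus pPGK in Cd69 bin 2 was 0.18, both with the sign reversed. With the median of all bins set to 0, 4 values close to the threshold crossed it: chr11 bin 12 (-0.91) and Il2ra bin 8 (-0.93) with SCP1, and both SCP1 differences of Il2ra bin 6 (0.91 each).

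**Figure D5:**
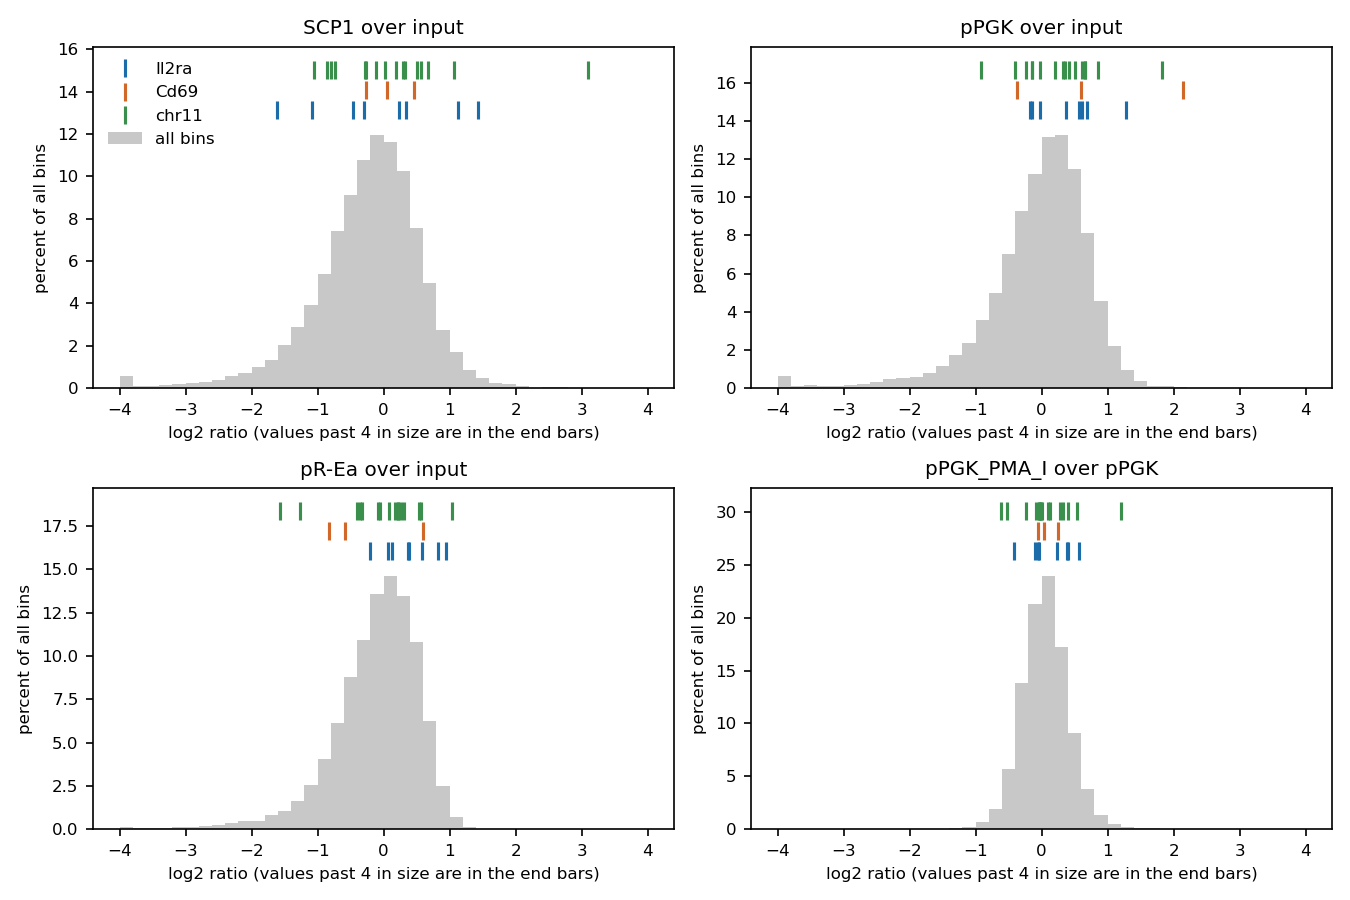
Percent of all bins (vertical axis) by log2 ratio (horizontal axis, values past 4 in size in the end bars), 1 panel a comparison, with marks for the 27 member bins. Under the stimulus, 22 members lie within 0.5 of 0, and chr11 bin 9 at 3.09 with SCP1 and chr11 bin 2 at 1.21 under the stimulus lie in the right tails.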

How the data were processed

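CapStarr-seq reads of 7 samples, each the only library of its group, were analysed. Per the submitters' processing notes, the authors used Bowtie2, SAMtools and bedtools 2.28.0 with build mm9; no further version is given in these sources. In the 4 files, the authors deposited fragments of 315 bp and their counts, in columns 7 and 8, read as reporter and input counts. The 3 inputs were taken from column 8. No label states this reading; column 8 was equal at all 5163999 positions shared by the 2 pPGK files. The deposited mapping score (column 5) was at least 30 for all SCP1 and pR-Ea reads, 64.7% of pPGK and 98.9% of pPGK_PMA_I reporter reads, so a position listed under 30 in any file was left out. Chromosomes 1 to 19, X, Y and M were used.

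A position listed on both strands was counted once, with the counts and the fragment of its minus-strand line, and its plus-strand line was left out. Reads were placed in 500 bp bins by fragment midpoint, and bins needed 50 reads in each input. Reads at used positions were 52618040 (SCP1), 45984991 (pPGK), 55468235 (pPGK_PMA_I) and 49183121 (pR-Ea), over 43316361, 16785247 and 18043642 input reads. Ratios, intervals and the SE over positions (delta method) are as the results state, and every call also needed 50 reads in its counts. The labels give no separate cultures, so nothing here measures the spread between cultures.

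Bins named are, in each window, those with the highest and lowest mean activity over 3 promoters, the highest and lowest stimulus ratio, the most input reads, and each bin called under the stimulus. Other bins called in a comparison, Il2ra bin 5, chr11 bins 1 and 16 and the closest bins outside the minimum are named as well, after their values were seen. The windows, genes and motifs were chosen with earlier results of these data known. Software was Python 3.11.15, numpy 2.4.6, scipy 1.17.1, pandas 2.3.3, matplotlib 3.10.9 and, for 1 alternative scaling, edgeR 4.0.16.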

Additional observations from a re-analysis of the deposited data

Results flagged for a closer look

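The same bin differed between promoters in 12 instances in which the activities also lay on opposite sides of 0. With 1 library each, none of these differences was tested against replicates. The share of all bins under this rule was not counted. In several of them an activity had an interval over positions that held 0, so its side of 0 is not settled. Among these were pR-Ea in chr11 bin 9 at -0.05 (SE 0.25) and in Il2ra bin 8 at 0.07 (SE 0.20). SCP1 in Il2ra bin 6 was another, at -0.46 (SE 0.27). pPGK minus SCP1 was 2.31 in Il2ra bin 4, 1.08 in Il2ra bin 6 and 1.4 in chr11 bin 12. pR-Ea minus SCP1 was 1.98 in Il2ra bin 4, 1.04 in Il2ra bin 6 and 1.15 in Il2ra bin 8, and -1.04 in Cd69 bin 2, -1.94 in chr11 bin 5 and -3.13 in chr11 bin 9. pR-Ea minus pPGK was -1.19 in Cd69 bin 2, -1.76 in chr11 bin 5 and -1.88 in chr11 bin 9.

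Some bins of the Il2 and Ifng windows exceeded their input although they missed the input minimum and entered no comparison. They were picked for their high values. Calls above input were more frequent at low input: in pPGK_PMA_I, 14.3% of all bins with 50 to 99 input reads had one, against 4.28% with 200 or more. At a minimum of 20 input reads, 4.5% of all bins were above input with SCP1, 5.64% with pPGK and 11.3% in pPGK_PMA_I. In the Il2 window, the bin at chr3:37104501-37105000 had log2 activity 1.26 with pPGK and 1.45 in pPGK_PMA_I, over 37 input reads, with 4 SCP1 reads over 44. The bin at chr3:37000501-37001000 was at 1.41 and 1.48 over 17 input reads, and the bin at chr3:37029001-37029500 at 1.54 with SCP1 over 17. In the Ifng window, the bin at chr10:117807501-117808000 was at 1.52 with pPGK and 1.87 in pPGK_PMA_I, from 273 and 375 reads over 39. The bin at chr10:117926001-117926500 was at 1.1 in pPGK_PMA_I, from 153 reads over 27.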

How the results depend on the processing

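No paired analysis was possible because each group has 1 library and no replicate to pair or leave out. Of 33 called bin values, 7 kept their call under each alternative that held the bin, 11 or 12 of 13, of which 9 were planned and 4 chosen after seeing the data. A window value is said to move when it leaves the 95% interval over positions of its first value.

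Counting positions in place of reads left 2 bins above input with SCP1 (0.442% of all bins), 1 with pPGK (1.26%) and 1 with pR-Ea (0.0511%). In pPGK_PMA_I 0 were left above (1.05%). Below input 0 were left with SCP1 (4.0%), pPGK (2.0%), pPGK_PMA_I (1.36%) and pR-Ea (1.23%). The stimulus had 0 calls (0.043% higher and 0.0914% lower). pPGK was above SCP1 in 2 bins (3.42%). pR-Ea was above SCP1 in 1 (3.39%) and under it in 1 (0.636%), and had 0 calls against pPGK (0.89% above and 1.27% under). Fewer bins then reach 50 counts (15 of 27 with pPGK, 12 in pPGK_PMA_I, 19 under the stimulus). It reversed Il2ra bin 3 in pPGK_PMA_I (-0.36) and Cd69 bin 2 for pR-Ea against pPGK (0.18). Il2ra moved to -0.07 under the stimulus, Cd69 to 0.27 with pPGK, 0.33 in pPGK_PMA_I and 0.07 with pR-Ea, and chr11 to 0.06 with SCP1, 0.19 in pPGK_PMA_I and -0.08 under the stimulus.

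Without the mapping score filter, 17 of 28 bins were called in pPGK_PMA_I (16 above input, as were 27.3% of all bins) and 4 under the stimulus (3 higher, as were 6.02% of all bins). Il2ra moved to 1.06 in pPGK_PMA_I and 0.60 under the stimulus, Cd69 to 1.51 and 0.64, and chr11 to 0.91 and 0.36, with 0.54 for pPGK. That setting moved the median of all bins to 0.55 in pPGK_PMA_I and to 0.44 under the stimulus.

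A minimum of 100 input reads left 13 bins. None of them was above input in any library, against 3.26% (SCP1), 3.21% (pPGK), 5.88% (pPGK_PMA_I) and 0.633% (pR-Ea) of all bins. Below input were 1 with SCP1 (13.9%), 1 with pR-Ea (8.28%), 0 with pPGK (9.89%) and 0 in pPGK_PMA_I (9.67%). There were 0 calls under the stimulus (0.665% higher and 0.266% lower) and 0 for pPGK against SCP1 (5.9% and 2.0%). pR-Ea was above SCP1 in 1 bin (8.06%), under it in 1 (5.03%) and under pPGK in 2 (5.14%). Il2ra was then at 0.01 with pPGK, 0.16 in pPGK_PMA_I and 0.04 with pR-Ea, and Cd69 at 0.31 with pPGK and -0.73 with pR-Ea. A minimum of 20 gave 47 bins, with 8 calls for pPGK, 9 for pPGK_PMA_I, 7 for pR-Ea, 3 under the stimulus, 10 for pPGK against SCP1, and against pPGK 8 for pR-Ea. Bins shifted by 250 bp left 20 bins, with 1 above and 2 below input for SCP1 (all bins: 3.68% and 14.5%). Above input were 1 for pPGK (3.85%) and 2 for pPGK_PMA_I (7.69%), with 0 below (9.54% and 9.42%). pPGK was above SCP1 in 1 (8.09%). pR-Ea was above SCP1 in 2 and under it in 1 (9.09% and 5.7%), and under pPGK in 2 (6.3%). Cd69 was at 0.42 in pPGK_PMA_I.

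Scaling to all used reads moved Il2ra to 0.11, Cd69 to 0.44 and chr11 to 0.08 in pPGK_PMA_I, and chr11 to 0.16 with pPGK and -0.08 under the stimulus. It lowered the median of all bins to -0.27 in pPGK_PMA_I and to -0.10 under the stimulus. Its calls above and below input were 4 and 2 for SCP1 (all bins: 4.36% and 13.1%) and 3 and 1 for pPGK (1.75% and 12.8%). For pPGK_PMA_I they were 2 and 1 (2.19% and 17.1%). Setting the median of all bins to 0 and TMM factors each called 4 bins above and 1 below with SCP1. Of all bins, 5.63% and 11.4% were so called with the median set to 0, and 5.81% and 11.2% with TMM factors. All 3 scalings put pPGK above SCP1 in 3 bins (4.1% to 5.03% of all bins) and under it in 1 (4.1% to 5.23%). They put pR-Ea above SCP1 in 2 (6.65% to 7.96%) and under it in 3 (6.47% to 7.74%). The stimulus ratio of chr11 bin 2 ranged from 0.29 to 1.55 and kept its call in 10 of 11 alternatives that held the bin.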

Other observations

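Below the input minimum in the chromosome 11 cluster, the bin at chr11:53612001-53612500 gave 66 pPGK reads and 149 pPGK_PMA_I reads over 49 input reads, a log2 stimulus ratio of 1.05 (95% interval of 0.63 to 1.5 from read counts). It gave 0 SCP1 reads over 78 input reads and 40 pR-Ea reads over 37. In the Cd69 window, the bin at chr6:129225501-129226000 gave 210 pPGK and 328 pPGK_PMA_I reads over 35 input reads, with activity of 1.30 and 1.83 and a stimulus ratio of 0.53. The bin at chr6:129234501-129235000 gave 18 pPGK and 75 pPGK_PMA_I reads over 67, a stimulus ratio of 1.89 (95% interval of 1.19 to 2.78) with activity below input in both, at -3.07 and -1.21. All of these bins were singled out after their values were seen.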
